A study of Mus musculus with 4 samples.

Results

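The Ifitm genes encode the interferon-induced transmembrane proteins, and the members were taken by gene symbol, without use of their values. The table of gene expression lists 7 of them, Ifitm1, Ifitm2, Ifitm3, Ifitm5, Ifitm6, Ifitm7 and Ifitm10, among 53465 genes in all. They were measured by Long RNA-seq in cultured mouse female germline stem cells (FGSCs), a line labelled as ovarian germ stem cells. The cells had been infected with a lentivirus that carried a control shRNA (shNC, 2 libraries) or an shRNA against Nat10 (shNAT10, 2 libraries). Nat10 encodes the acetyltransferase that makes N4-acetylcytidine (ac4C) in RNA, and the comparison asks how transcript levels differ once it is depleted. Both groups had therefore gone through infection and drug selection, with puromycin or blasticidin, and no uninfected culture was analysed here. The study's methods keep its mice on a C57BL/6J background without tying this to the cell line, and the age of the source mice and which of the study's listed Nat10 target sequences the sequenced cells carried are not given in the sources used here. The study calls the 2 libraries of a group biological replicates, while the labels give no culture for any of them, and the p-values measure the spread between these libraries.

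IFITM proteins are small membrane proteins. Several of them are induced by interferon and restrict the entry of many enveloped viruses by acting on the membrane at which virus and cell fuse. Ifitm1 protein sits mainly at the cell surface, while Ifitm2 and Ifitm3 proteins are found mainly in endosomes and lysosomes. Ifitm3 is also known as Fragilis, a gene switched on in the precursors of primordial germ cells, and for that reason it is used as a marker of germline stem cells. Ifitm5 is known from bone-forming osteoblasts.

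Ifitm3 was assayed by RT-PCR in the study under the name Fragilis. The primer pair is shown because it defines the germline marker among near relatives, with the most similar stretch of Ifitm1 and Ifitm2 in the same sense and with capitals at the bases that differ from the primer.
Fragilis forward primer: gttatcaccattgttagtgtcatc
Closest stretch in Ifitm1: gtCGtcaTcGttgtCTgtgCcatT
Closest stretch in Ifitm2: AtCTtcaGcatCCttaTGgtcatT
Fragilis reverse primer: aatgagtgttacacctgcgtg
Closest stretch in Ifitm1: TGtgagtgtCacaTTtgcAtA
Closest stretch in Ifitm2: GGtgaAGgtAacaTTtgcAtA

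In the GENCODE M21 transcripts of GRCm38 (mm10), both primers matched Ifitm3 exactly and no other gene. The forward primer (24 nt) lies in the coding part of exon 2 of 2 at chr7:141009761-141009784, and the reverse primer (21 nt) in the 3′ UTR of the same exon at chr7:141009634-141009654, both on the minus-strand gene. They enclose 151 nt of the Ifitm3 transcript. The forward primer differed from Ifitm1 at 8 bases and from Ifitm2 at 9, and the reverse primer at 7 and 9. Over the coding sequences, Ifitm3 was 81.9% identical to Ifitm1 and 80.8% identical to Ifitm2. No stretch of 75 nt was shared between any of the 7 members, so a read of that length without errors can be assigned to 1 of them.

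The start regions of Ifitm3 and Ifitm2 are shown because they hold the core of the interferon-stimulated response element, here GAAA, any 2 bases and GAAA again. The capitals mark this motif, and both stretches (30 nt each) are printed in the sense of their minus-strand genes, from RefSeq promoters of GRCm38.p6.
Ifitm3, chr7:141010715-141010744: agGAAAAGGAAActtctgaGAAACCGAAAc
Ifitm2, chr7:140955988-140956017: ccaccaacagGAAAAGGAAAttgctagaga

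Both strands were searched from 250 bases before to 50 after each RefSeq start. The motif was found in 3.44% of 32851 promoter windows of 27025 genes. All 7 members had a window there, and the motif occurred at 2 positions in Ifitm3, at 1 in Ifitm2 and at none in the other members. Counted from 0 at the RefSeq start, the matches begin at 2 and 19 in Ifitm3 and at -46 in Ifitm2. GENCODE places the start of Ifitm3 26 bases further upstream. The GENCODE genes of Ifitm1 (from chr7:140967221) and Ifitm6 (from chr7:141017924) begin outside their windows, chr7:140967826-140968125 and chr7:141016843-141017142. These 2 GENCODE starts were therefore not searched. A second motif, TTCNNNGAA, which STAT dimers are known to bind and which reads the same on both strands, was found in 8.3% of the windows. Among the members it occurred in Ifitm3, where it overlaps the later match of the response element, and in Ifitm6. A match is a description of the letters and was not tested as a binding site.

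The values are FPKM, fragments scaled to exon length and to a divisor per library, as the authors deposited them. Because FPKM steps by the worth of 1 fragment, the fragments could be recovered. They totalled 14902434 and 13029100 in shNC-1 and shNC-2, and 11057921 and 13771490 in shNAT10-1 and shNAT10-2. The divisors, 11.7 and 11.9 M (mega) in shNC and 12.6 and 15.3 M in shNAT10, did not follow these totals: they were below the total in both shNC libraries and above it in both shNAT10 libraries. Of the values under 50 fragments, 96.0% to 96.6% per library lay within 0.02 of a whole number. Nat10 itself stood at 7.79 (shNC-1), 5.42 (shNC-2), 2.95 (shNAT10-1) and 3.04 FPKM (shNAT10-2), a log2 fold change of -1.09. The study characterised its FGSCs by RT-PCR of Oct4, Ddx4, Fragilis and Blimp1 and by staining for DDX4 and OCT4, assays that were not analysed here. In the RNA-seq, the germ cell label was checked against 23 markers of primordial germ cells and germline stem cells. Of these, 15 were under 10 fragments in total. The 15 include 8 that were at 0 in all libraries, Pou5f1 (Oct4), Dazl and Sall4 among them. Ddx4 had 2 fragments and Prdm1 (Blimp1) 24. The summed FPKM of the list was 28.5 to 32.8 in shNC and 19.9 to 20.8 in shNAT10, and most of it was Kit, which the mast cell list also holds. Of the 6 markers tested, 2 fell (Kit and Etv5, 33.3% called against 16.2% of all genes), and the other 4 had log2 fold changes above 0 and were not called. Of the 12 pan-leukocyte markers none was at 0, with sums of 598 and 666 FPKM in shNC and 507 and 528 in shNAT10, and 5 fell and 0 rose (41.7% called, against 7.83% of all genes lower). The 14 mast cell markers summed to 467 and 471 FPKM in shNC and 498 and 503 in shNAT10, with Cpa3 at 245 to 272 and with Fcer1a, Tpsb2 and Mrgprb2 at 0. Of the 8 mast cell markers tested, 4 fell (Fcer1g, Kit, Mitf and Gata2) and 2 rose (Ms4a2 and Il1rl1), a share of 75% called against 16.2% of all genes tested. The 10 macrophage and monocyte markers summed to 65.2 and 70.7 FPKM in shNC and 50.4 and 55.2 in shNAT10, with C1qa and C1qb at 0. Of the 6 that were tested, Adgre1 and Fcgr1 fell and Lyz2 rose (50% called), and Adgre1 stood at 33.2 to 47.8 FPKM. Ifitm genes are also expressed in blood cells, and the part of these cell types in the Ifitm values was not tested. In bulk RNA, fewer cells of a type and less RNA per cell cannot be told apart.

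Ifitm1, Ifitm2 and Ifitm3 made up nearly all of the family's FPKM. Ifitm1 had the highest mean FPKM of the 3 and ranked 278 among all 53465 genes, Ifitm2 ranked 458 and Ifitm3 1613. In shNC the order Ifitm1, Ifitm2, Ifitm3 held with no overlap between neighbours. In shNAT10, Ifitm1 (98.7 and 104 FPKM) and Ifitm2 (74.4 and 98.9 FPKM) overlapped, and Ifitm3 (27.1 and 33.6 FPKM) stayed below both. Within each library Ifitm1 was above Ifitm2 and Ifitm2 above Ifitm3, with Ifitm2 at 0.952 and 0.754 times Ifitm1 in shNAT10. Ifitm5 and Ifitm6 were at or under 1.32 FPKM in every library, and Ifitm7 and Ifitm10 at or under 0.0528 FPKM.

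**Figure D1:**
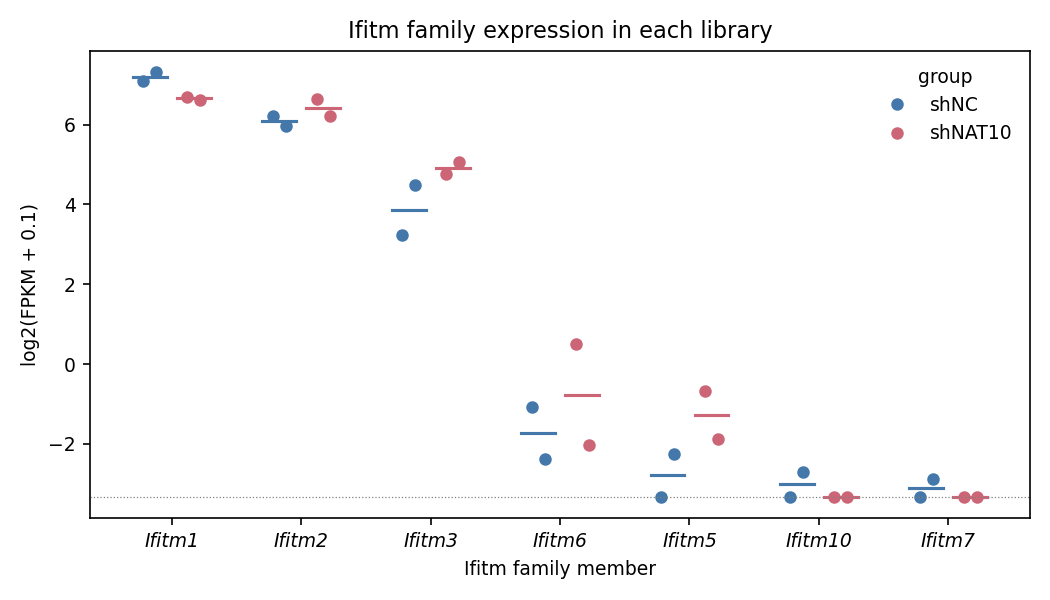
Level of each Ifitm gene in each library, as log2(FPKM + 0.1) on the vertical axis, with points for the 2 shNC and 2 shNAT10 libraries, lines at the mean of each group and a dotted line at 0 FPKM. Ifitm1 is lower in both shNAT10 libraries than in both shNC libraries, Ifitm2 and Ifitm3 are higher, and the shNC points of Ifitm3 lie 1.25 log2 units apart.

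Groups were compared with limma on log2(FPKM + 0.1), a scale that understates the change of low genes, over the 20116 genes with a mean of at least 0.1 FPKM. A gene was called where its fold change exceeded 1.2 with an unadjusted p no higher than 0.05, and adjusted p-values are Benjamini-Hochberg values over all of these genes. Of the 5 members that passed the filter, 1 was called, Ifitm1, and it was lower in shNAT10. Over all genes tested 16.2% were called, 8.41% higher and 7.83% lower. At a limma adjusted p under 0.05 the members numbered 0, against 0.437% of all genes, while 1 member had an unadjusted p under 0.05. With limma-voom on the recovered fragments, 2 members reached an adjusted p under 0.05, Ifitm1 lower and Ifitm3 higher, against 7.88% of all genes. Between the groups, 3 members did not overlap and were higher in shNAT10 (23.9% of all genes) and 1 did not overlap and was lower (24.1% of all genes). An exact two-sided permutation test of 2 libraries against 2 cannot give a p under 0.3333, and it gave that value for each of these 4 members.

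Ifitm1 (ENSMUSG00000025491, chr7:140967221-140969825, plus strand) fell. Its FPKM was 136 in shNC-1 and 159 in shNC-2, against 104 in shNAT10-1 and 98.7 in shNAT10-2. The shNAT10 libraries were both under the lower shNC library, and the shNAT10 libraries were closer to each other than the shNC libraries were. The group means were 148 ± 16.6 and 101 ± 3.71 FPKM (SD, n = 2 each). The log2 fold change was -0.54 (SE 0.11; limma p = 0.00556, adjusted p = 0.136, exact permutation p = 0.3333), and limma-voom gave -0.54 with an adjusted p of 0.00155. Left out in turn, the libraries moved it between -0.65 and -0.43, and the limma p rose to 0.0725 without shNAT10-1 and to 0.0919 without shNAT10-2. The value rests on 1427 to 2071 fragments per library. The exon length behind this FPKM is 1094 nt, while the 3 annotated transcripts measure 560, 736 and 882 nt.

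Ifitm3 (ENSMUSG00000025492, chr7:141009586-141010770, minus strand) was higher in both shNAT10 libraries but did not pass the threshold. Its FPKM was 9.29 in shNC-1 and 22.2 in shNC-2, against 27.1 in shNAT10-1 and 33.6 in shNAT10-2. The library that stood apart was shNC-1, and shNC-2 lay nearer to shNAT10-1 than to shNC-1. The 95% exact Poisson intervals, which cover counting error only, were 7.30 to 11.7 FPKM in shNC-1 (74 fragments) and 19.1 to 25.7 in shNC-2 (179 fragments), so the shNC libraries differed beyond counting. They were 23.8 to 30.9 FPKM in shNAT10-1 (231 fragments) and 30.1 to 37.3 in shNAT10-2 (349 fragments). The interval of shNC-2 overlapped that of shNAT10-1.

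The group means of Ifitm3 were 15.8 ± 9.15 and 30.4 ± 4.55 FPKM (SD, n = 2 each). The shNC libraries differed by 1.25 on the log2 scale, more than 99.5% of the 3574 genes with a mean of at least 10 FPKM, whose median difference was 0.155. The shNAT10 libraries differed by 0.31, more than 92.0% of those genes. The log2 fold change of 1.06 (SE 0.43) thus stood beside a difference of 1.25 within shNC, with a limma p of 0.0613 and an adjusted p of 0.326. Without shNC-1 the log2 fold change was 0.44, and without shNC-2 it was 1.69, which passed the threshold. With an shNC library left out, the single shNC library is assumed to vary as the shNAT10 libraries do (SE 0.19, against 0.79 with an shNAT10 library left out). Limma-voom, which weights by fragments, gave 1.07 (SE 0.24, adjusted p = 0.00363), so the call of Ifitm3 depended on which of these tests was used.

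Ifitm2 (ENSMUSG00000060591, chr7:140954837-140955987, minus strand) stood at 73.8 (shNC-1) and 62.4 FPKM (shNC-2), against 98.9 (shNAT10-1) and 74.4 FPKM (shNAT10-2). The groups did not overlap, but the higher shNC library and the lower shNAT10 library were 73.8 and 74.4 FPKM, with intervals of 67.9 to 80.2 and 69.2 to 79.9. The means were 68.1 ± 8.10 and 86.6 ± 17.3 FPKM (SD, n = 2 each). The log2 fold change of 0.34 (SE 0.17, limma p = 0.115, adjusted p = 0.426, exact permutation p = 0.3333) did not pass the threshold. Limma-voom, at 0.33 (SE 0.14, adjusted p = 0.180), put its unadjusted p under 0.05, as did a fit with the replicate number as a block, and it then passed the threshold. The log2 fold change stayed between 0.13 and 0.54 as the libraries were left out in turn. Of the 75-nt stretches in Ifitm2 transcripts, 42.0% also occur in another annotated gene. One of these is Gm45717, a gene model that joins an Ifitm2 exon to an Ifitm5 exon and covers 268 of the 655 exon nt of Ifitm2. Gm45717 was listed at 0 in all libraries, and the sharing pseudogene Gm11951 held at most 3 fragments. How reads of shared sequence were assigned is not given in the sources used here, so the level of Ifitm2 is uncertain to that extent.

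**Figure D2:**
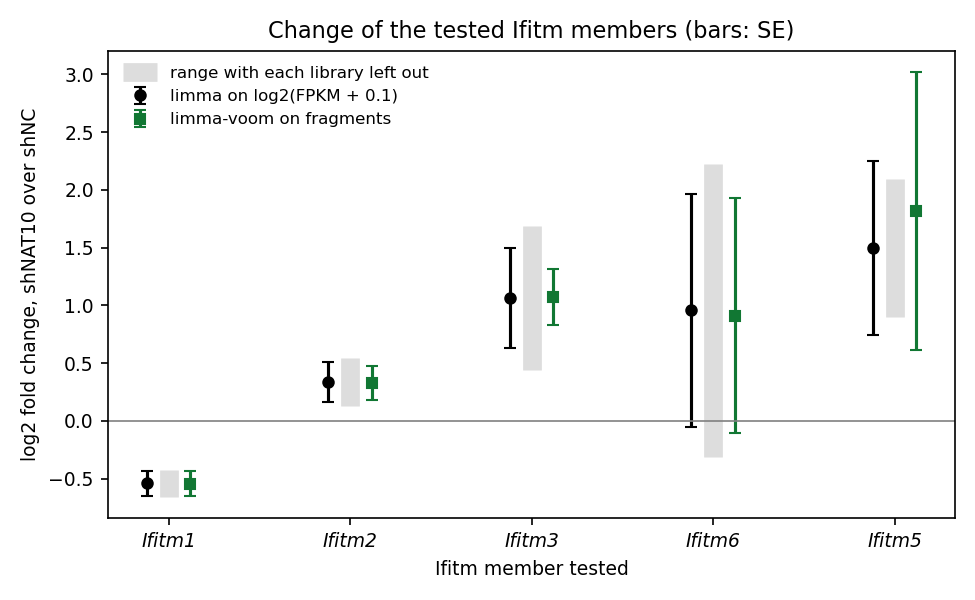
Log2 fold change of shNAT10 over shNC for the Ifitm genes tested, from limma on log2(FPKM + 0.1) (black) and limma-voom on recovered fragments (green), each ± SE, with grey bars for the range as each library is left out. Ifitm1 lies below 0 throughout its range of -0.65 to -0.43, the Ifitm3 range runs from 0.44 to 1.69, and that of Ifitm6 crosses 0.

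The other members were near the limit of detection, taken as 3 fragments in a library. Ifitm5 (ENSMUSG00000025489, chr7:140948958-140950291, minus strand) had 0 and 1 fragments in shNC and 5 and 2 in shNAT10. Only shNAT10-1 was above the limit, and the fitted log2 fold change of 1.5 (SE 0.75, limma p = 0.108, adjusted p = 0.415, exact permutation p = 0.3333) rests on 8 fragments in all. It depends on the pseudocount, at 0.34 with a pseudocount of 1 and 3.16 with 0.01. Gm45717 also covers 227 of its 765 exon nt. Ifitm6 (ENSMUSG00000059108, chr7:141015699-141017924, minus strand) had 4 and 1 fragments in shNC and 15 and 2 in shNAT10. Its groups overlapped, and the log2 fold change of 0.96 (SE 1.01, limma p = 0.391, adjusted p = 0.672, exact permutation p = 0.6667) turned to -0.31 without shNAT10-1.

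Ifitm10 (ENSMUSG00000045777, chr7:142325837-142373753, minus strand), which lies on the same chromosome as the other members apart from Ifitm7, had 3 fragments in shNC-2 and 0 elsewhere. Ifitm7 (ENSMUSG00000065968, chr16:13981699-13986888, minus strand) had 1 fragment in shNC-2 and 0 elsewhere. Neither passed the filter. A count of 0, taken to allow up to 3 fragments, allows up to 0.0409 to 0.0533 FPKM of Ifitm10 and up to 0.0824 to 0.107 FPKM of Ifitm7 in the libraries without a fragment. A difference between the groups was not detectable at this depth for either gene.

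The family's summed FPKM overlapped between the groups, and its composition is given as shares of that sum. The sum was 219.5 (shNC-1) and 244.4 FPKM (shNC-2), against 231.8 (shNAT10-1) and 207.0 FPKM (shNAT10-2). Ifitm1 took 62.0% and 65.3% of it in shNC and 44.8% and 47.7% in shNAT10. Ifitm2 took 33.6% and 25.5% in shNC and 42.7% and 35.9% in shNAT10. The share of Ifitm3 was 4.23% and 9.10% in shNC and 11.7% and 16.2% in shNAT10. The shares add up to 100%, so a lower share of Ifitm1 raises the others by arithmetic, and they were not tested. The log2 ratio of Ifitm3 to Ifitm1, both per length, was -3.87 and -2.84 in shNC and -1.94 and -1.56 in shNAT10. The means of this ratio were -3.36 ± 0.73 and -1.75 ± 0.27 (SD, n = 2 each), a difference of 1.61 with an exact permutation p of 0.3333, the smallest possible. Because both genes are read in the same library, a scaling between libraries cancels in this ratio. The ratio of Ifitm3 to Ifitm2 was 0.126 and 0.357 in shNC and 0.274 and 0.451 in shNAT10, and the groups overlapped.

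**Figure D3:**
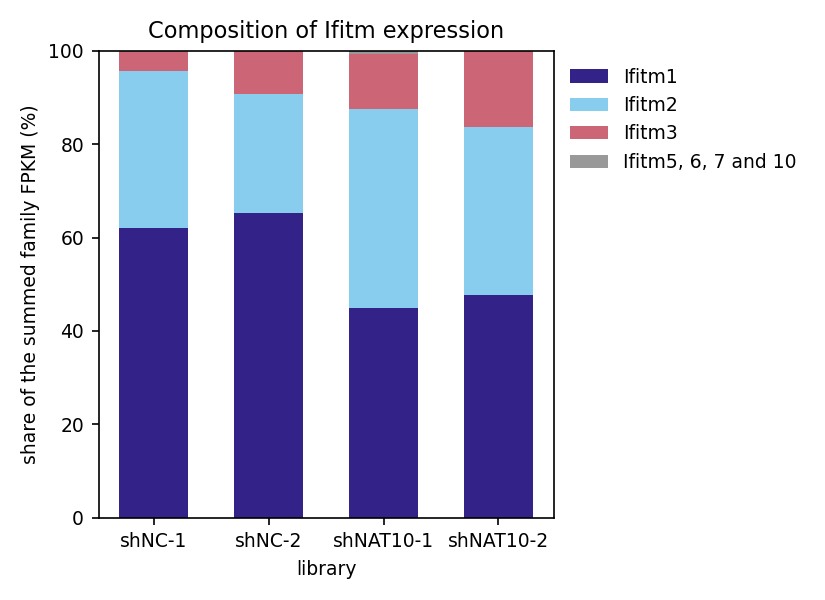
Share of each Ifitm gene in the summed FPKM of the family, in percent, as 1 stacked bar per library. The Ifitm1 share is 62.0% (shNC-1), 65.3% (shNC-2), 44.8% (shNAT10-1) and 47.7% (shNAT10-2), and the shares of Ifitm2 and Ifitm3 are larger in the shNAT10 libraries.

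Several Ifitm genes, Ifitm1, Ifitm2 and Ifitm3 among them, are targets of type I interferon, which signals through JAK kinases to transcription factors that bind the response element. Of 30 other type I interferon targets, all of them tested, 21 rose (70%, against 8.41% of all genes tested), 0 fell and 9 did not pass the threshold. The median log2 fold change of this list was 0.89, against 0.01 over all genes tested, and all 30 values were above 0. Ifit3, which encodes an antiviral tetratricopeptide protein, had 1.85 and 2.66 FPKM in shNC and 8.13 and 7.03 in shNAT10. Eif2ak2, the kinase PKR that senses double-stranded RNA, had 5.31 and 4.84 FPKM in shNC and 10.4 and 9.96 in shNAT10. The other called targets with the smallest p were Trim30a (log2 fold change 1.23), Ifi44 (1.89) and Rtp4 (1.09), and Oas2, a synthase of the signal that activates RNase L, went from 0.153 and 0.114 FPKM to 1.15 and 1.29. Ifitm1, at -0.54, thus lay on the other side of 0 from every gene of that list. Ifitm2, at 0.34, and Ifitm3, at 1.06, lay on the same side.

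Of 18 interferon receptor and JAK-STAT genes, 17 were tested, 5 rose and 3 fell (47.1% called, against 16.2% of all genes tested), with a median log2 fold change of 0.07. The transcription factors Irf1 (0.78) and Irf9, the inhibitor Socs3 (0.37) and the protease Usp18 (1.22), which removes Isg15 from proteins, were among those that rose. The kinase Jak2, the inhibitor Socs1 (-0.40) and the phosphatase Ptpn2 (-0.46) fell. At a limma adjusted p under 0.05 the 2 lists held 0 genes, while limma-voom gave such a value to 22 genes that were higher and to 1 that was lower, out of 47 tested, against 7.88% of all genes. Both lists together held 29 called genes (61.7%, against 16.2% of all genes tested). Without shNAT10-1 or shNAT10-2 this count was lower, and so was the share of all genes called. Each of these fits leaves 1 shNAT10 library. Of the type I targets, 18 of 30 were lower in shNC-1 than in shNC-2, the order that Ifitm3 had. So were 9 of the 17 receptor and JAK-STAT genes tested, and 47.4% of all genes tested. Whether the lists differ from all genes in that order was not tested. Isg15 shared that order, with 13.1 and 24.6 FPKM in shNC and 23.3 and 22.2 in shNAT10, and was not called.

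**Figure D4:**
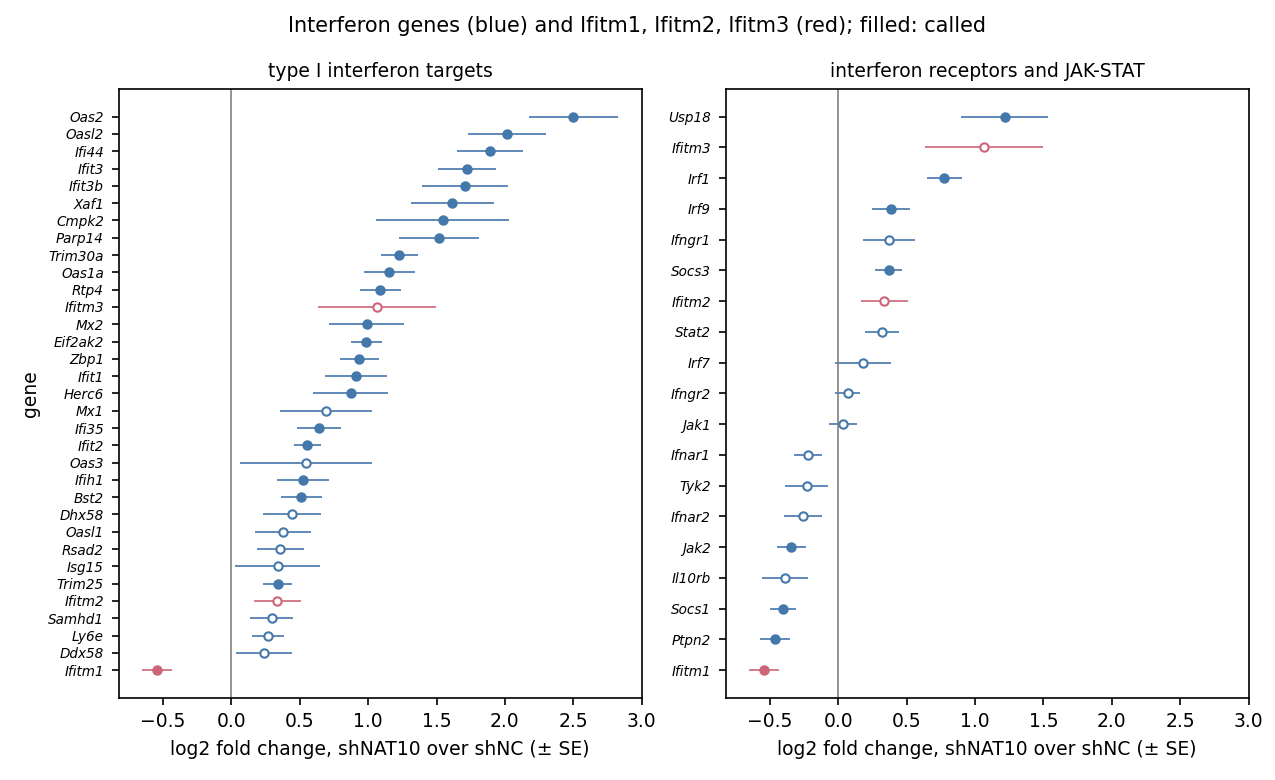
Log2 fold change of shNAT10 over shNC ± SE by limma for genes of the interferon lists (blue) beside Ifitm1, Ifitm2 and Ifitm3 (red), with filled points for called genes and 1 gene of the receptor and JAK-STAT list not drawn. All 30 type I interferon targets lie above 0, and Ifitm1 lies below 0 at -0.54.

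Across the 4 libraries, the genes whose pattern was most like that of Ifitm3 were sought by the Euclidean distance between log2(FPKM + 0.1) values centred on each gene's mean. Among the 3573 other genes with a mean of at least 10 FPKM, the nearest were Usp18 (distance 0.315), Ifit1 (0.503), the histone genes Hist1h3c (0.550) and Hist1h3f (0.576), and Igfbp6 (0.576). Usp18 and Igfbp6 (6.66 and 9.39 FPKM in shNC) were under 10 FPKM in both shNC libraries and passed this filter only through shNAT10. A filter on the mean of all libraries thus favours genes that are higher in shNAT10. Usp18 had 4.67 and 8.88 FPKM in shNC and 14.5 and 15.7 in shNAT10. That it was lowest in shNC-1, as Ifitm3 was, follows from the choice by distance and is not a separate result. Ifit1, another tetratricopeptide antiviral gene, had 6.80 and 10.2 FPKM in shNC and 14.5 and 17.1 in shNAT10. Ifitm2 ranked 1459 and Ifitm1 3243 by this distance. The distances describe 4 libraries and share their scaling, and no test was made of them.

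**Figure D5:**
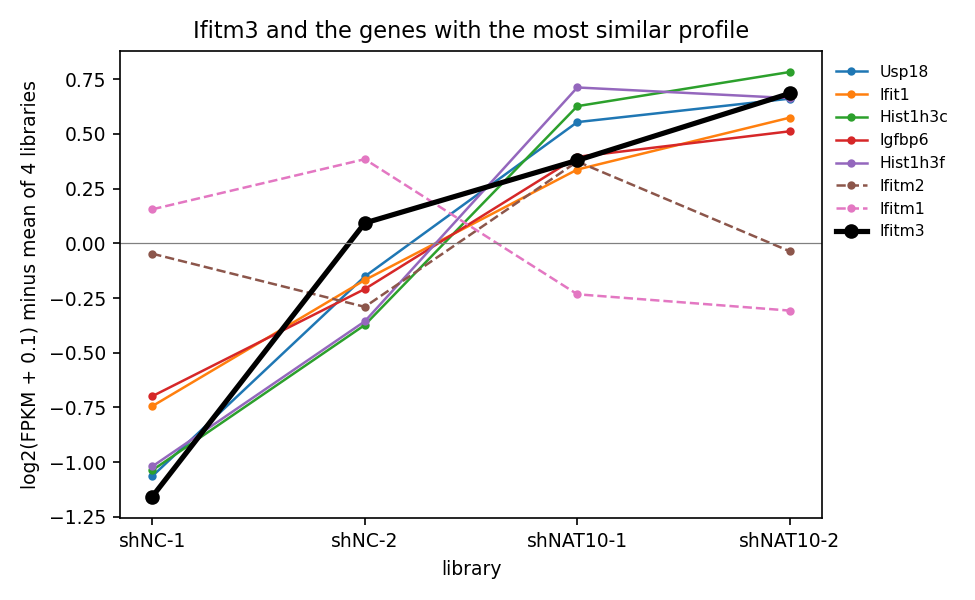
Centred log2(FPKM + 0.1) in the 4 libraries for Ifitm3, the 5 genes nearest to it and, dashed, Ifitm1 and Ifitm2, where lines only join the points of a gene. Ifitm3 and its nearest genes are lowest in shNC-1 and higher in both shNAT10 libraries, a likeness that the choice by distance fixes. Ifitm1 is lower in both shNAT10 libraries.

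Genes that act on IFITM proteins or bind them did not move in 1 direction. Of 18 listed, 17 were tested, 2 rose and 3 fell (29.4% called, against 16.2% of all genes tested), and the median log2 fold change was 0.04. The tetraspanins Cd9 (0.52) and Cd81 (0.28), the latter a known partner of Ifitm1 protein, rose. The kinase Fyn (-0.78), which phosphorylates IFITM3, the clathrin adaptor subunit Ap2m1 (-0.40), which takes part in its endocytosis, and Vapa (-0.29) fell. Zdhhc20, which palmitoylates IFITM3, was at 6.67 and 7.70 FPKM in shNC and 7.62 and 6.52 in shNAT10, and Nedd4, which ubiquitinates it, at 22.5 and 22.7 against 26.3 and 25.6. Neither was called.

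The neighbours of the Ifitm cluster on chromosome 7 were measured to set the members beside genes of the same region. Of 13 listed neighbours, 12 were in the table and 8 were tested. None rose (0 by limma at the threshold, 1 higher with an unadjusted p under 0.05, and 0 with an adjusted p under 0.05 by limma-voom), and 1 fell, Bet1l, a SNARE of the Golgi (log2 fold change -0.41), so that 12.5% were called, against 16.2% of all genes tested. The 1 with the unadjusted p was the proteasome subunit Psmd13, at 36.3 and 36.8 FPKM in shNC and 43.1 and 44.4 in shNAT10, whose fold change did not exceed 1.2. The median log2 fold change of the neighbours was 0.02. Of more distant relatives with the CD225 domain that defines the family, 9 were listed, 8 were in the table and only Tmem91 was tested. Tmem91 had 0.120 and 0.0475 FPKM in shNC and 0.472 and 0.221 in shNAT10 and was not called.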

How the data were processed

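Long RNA-seq libraries of shNC and shNAT10 FGSCs, 2 each, were grouped by the sample labels. The authors deposited FPKM per gene. According to the submitters' processing notes, cutadapt, HISAT2, DESeq2 and mm10 were used, without versions, and the counter and annotation are not given in the sources used here. The labels describe mRNA isolation with Oligotex, the methods rRNA depletion. A second table, with the authors' log2 fold change, p and adjusted p, was not used. Columns of single libraries left out numbered 0.

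Fragments were recovered as whole numbers from FPKM and GENCODE M21 exon lengths, for a divisor of 11.7 to 15.3 M (mega) per library. Intervals and the limit of 3 fragments cover counting error only, since PCR copies are not told apart. The shNAT10 and shNC libraries were set against each other by limma 3.58.1 under R 4.3.3 (trend, two-sided, no replicate term) on log2(FPKM + 0.1) for genes with a mean of at least 0.1 FPKM, after a test on simulated data. Calls required a fold change above 1.2 with p no higher than 0.05, with Benjamini-Hochberg adjustment beside it. Tables and figures were made in Python 3.11.15 (pandas 2.3.3, numpy 2.4.6, matplotlib 3.10.9, scipy 1.17.1).

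The members, the gene lists, the tests and the limma-voom alternative were chosen with earlier results of these data known. Named genes are all 7 members, Nat10, called genes of the interferon, regulator and neighbour lists (up to 6 with the smallest p per list), defining markers of cell types, and the 5 genes nearest to Ifitm3. A gene of the receptor and JAK-STAT list is not reported here, though the list's counts include it. Isg15, Zdhhc20, Nedd4, Psmd13, Tmem91, Jak2 and Irf9 were named after their values were seen. Lists of lymphocyte (10 genes, 1 tested, 0 called, 4 at 0), fibroblast (10 genes, 8 tested, 3 higher, 1 lower, 50% called against 16.2% of all genes, 1 at 0) and granulosa cell markers (10 genes, 5 tested, 0 called, 2 at 0) were also counted. Primers were read from the study's supplementary primer list and promoters from RefSeq. Alternatives tried were a pseudocount of 1 or 0.01, no filter, a mean of at least 1 FPKM, median-ratio rescaling, the same FPKM total without rRNA-related loci, quantile normalization, limma without trend, limma-voom on recovered fragments, the replicate number as a block, and each library left out.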

Additional observations from a re-analysis of the deposited data

How the results depend on the processing

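The count of Ifitm members called, 1 in the reported test, was 2 with a mean of at least 1 FPKM (3 members tested, 22% of all genes called) and with the same FPKM total without rRNA-related loci (15.6% of all genes), and 3 with limma-voom (19.4%) and with the replicate number as a block (15.5%). The count was lower without shNAT10-1 or shNAT10-2 and higher without shNC-2. In each of these fits the share of all genes called was lower than in the reported test, and 1 group held a single library. The log2 fold change of Ifitm3 passed the threshold with a mean of at least 1 FPKM (1.06), with the same FPKM total (1.11), with limma-voom (1.07), with the block (1.06) and without shNC-2 (1.69). It ranged from 0.44 to 1.69 as libraries were left out, and its adjusted p from 0.00363 to 0.716 over 14 alternatives. Ifitm2 passed with limma-voom (0.33) and with the block (0.34). Ifitm6 reversed to -0.31 without shNAT10-1 and reached 2.23 without shNAT10-2. Ifitm5 and Ifitm6 gave no value with a mean of at least 1 FPKM. The 29 interferon genes called ranged from 12 to 28 as libraries were left out. Over all genes, the 3267 calls fell to 2007 without shNAT10-1 and 2186 without shNAT10-2. The count at an adjusted p under 0.05, 88, was 296 with a mean of at least 1 FPKM, 136 with the same total, 151 with quantile normalization, 1582 with limma-voom, and 0 with pseudocounts of 1 and 0.01, no filter, no trend, the block or any library left out. With any library left out, the count of interferon genes called was lower than in the reported test. The share of all genes called was also lower without shNC-2, shNAT10-1 or shNAT10-2, but higher without shNC-1. Each of these fits leaves 1 library in a group, and whether the interferon count moved more than that of all genes was not tested. The cause of the changes between settings was not tested. Libraries with the same number shared no deviation (correlation 0.0071), so the number was not taken as a pairing. The counting intervals of Ifitm3 in the shNC libraries did not overlap, while Ifitm5, Ifitm7 and Ifitm10 were each under 10 fragments in all.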
